A study of Homo sapiens with 6 samples.

Results

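The genes described here are the heat shock transcription factor HSF1 and 9 genes for heat shock proteins, HSPA1A, HSPA1B, HSPA8, HSP90AA1, HSPH1, HSPB1, DNAJB1, HSPD1 and HSPE1. They were taken by symbol, through their Ensembl identifiers, from a table of read counts, and are 10 of its 61859 genes. All 10 had enough counts to be tested. Of the 9 chaperones, 7 work mainly in the cytosol and nucleus, and HSPD1 and HSPE1 work in mitochondria.

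RNA was sequenced from IOMM-Lee, an established human cell line. It came from a meningioma of grade 3, the malignant grade of this tumour of the brain's covering membranes. The control group was 3 libraries of cells labelled normoxic, whose oxygen level the labels do not give, and the other group was 3 libraries of cells held at 0.2% oxygen. Both groups carry the time 48 h, the same medium with serum and antibiotics, and no genetic change. A single cell line limits the model. The labels call the libraries biological replicates but do not say that they came from separate cultures, so p-values measure only the spread between these samples.

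Cells keep a pool of chaperones that fold new proteins and hold damaged ones in solution. HSF1 is the main switch of the heat shock response: it is thought to be kept inactive by chaperones, and when unfolded proteins draw these away it forms trimers, enters or stays in the nucleus and binds heat shock elements, which are inverted repeats of the letters GAA. HSF1 is controlled largely at the protein level, so its RNA is not a measure of its activity, which was not measured here. HSPA1A, HSPA1B, HSPH1, DNAJB1 and HSPB1 are classic heat-inducible genes, HSPA8 and HSP90AA1 also have a high basal level, and HSPD1 and HSPE1 form the folding chamber of the mitochondrial matrix and its lid.

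The letters of the element were looked for in RefSeq promoter windows on GRCh38.p14, each reaching from 250 bases before to 50 bases after a start site. Of the 10 genes 9 had at least 1 window, 13 windows in all, and HSF1 is named only. Motifs were read on both strands, and a gene was counted when any of its windows held the letters. The facing pair GAANNTTC (N is any base) was found for 7 of the 9 genes, all but HSPH1 and HSPE1, and in 8 of their 13 windows. Among all 27305 genes with a window 8.21% had it, and it was in 6.77% of all 35116 windows. The 3-unit form is that pair followed by any 2 bases and a further GAA. It was found for HSP90AA1, HSPA8 and HSPD1, in 3 of the 13 windows, and for 0.608% of all genes and in 0.49% of all windows. The back-to-back pair TTCNNGAA was found for the same 3 genes, also in 3 of the 13 windows, and for 9.46% of all genes and in 7.74% of all windows. The 3-unit form contains both pairs, so these counts overlap. Cores of the hypoxia response element were less selective. ACGTG was found for HSPD1 and HSPE1, in 2 of the 13 windows, and for 24.9% of all genes and in 21.4% of all windows. GCGTG was found for DNAJB1, HSP90AA1 and HSPD1, in 7 of the 13 windows, and for 40.6% of all genes and in 36.5% of all windows. These heat-inducible genes are known HSF1 targets, so a higher share of matches than in all windows is a description of the choice of genes. A match is not a bound site, and no match says only that these letters are not in this window.

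The stretches that hold the matches are shown because genes with them rose, fell and did not pass the test in hypoxia, as described further on. Each is printed from 5′ to 3′ on the gene's strand, and capitals mark the GAA and TTC triplets of the matches. HSPA8 has a pair of separate 3-unit matches, at chr11:123062345-123062374 and at chr11:123062170-123062199, on the minus strand, and the HSP90AA1 stretch is chr14:102087104-102087133, on the minus strand. The HSPD1 stretch is chr2:197500061-197500090, on the minus strand, and also lies within annotated exon sequence of HSPE1. DNAJB1 has 2 facing pairs in adjoining stretches, chr19:14518456-14518485 and chr19:14518426-14518455, on the minus strand, and 1 more in the window of another start site. HSPB1 has 1 at chr7:76302480-76302509, on the plus strand. The HSPA8 and HSP90AA1 stretches lie in annotated exons of transcripts that start further upstream, and those of DNAJB1 and HSPB1 lie outside annotated exons.
HSPA8 upstream: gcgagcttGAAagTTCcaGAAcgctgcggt
HSPA8 downstream: cgggccccTTCtgGAAggTTCtaagatagg
HSP90AA1: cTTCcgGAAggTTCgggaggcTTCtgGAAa
HSPD1: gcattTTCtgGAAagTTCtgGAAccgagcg
DNAJB1 upstream: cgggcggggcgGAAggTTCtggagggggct
DNAJB1 downstream: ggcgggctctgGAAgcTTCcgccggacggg
HSPB1: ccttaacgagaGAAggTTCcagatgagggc

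HSPA1A and HSPA1B are neighbouring copies of the inducible HSP70 gene. The stretches before their annotated exons, chr6:31815293-31815463 for HSPA1A and chr6:31827488-31827658 for HSPA1B, both on the plus strand, are shown to let the copies be compared. With HSPA1B read 1 base further on, 163 of 170 bases were identical (95.9%), and over the whole promoter windows 277 of 299 (92.6%). Both hold the same facing pair at nearly the same distance from the start.
HSPA1A: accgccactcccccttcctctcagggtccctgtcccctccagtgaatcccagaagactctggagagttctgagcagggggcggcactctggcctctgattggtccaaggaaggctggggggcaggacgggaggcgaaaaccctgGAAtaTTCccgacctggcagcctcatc
HSPA1B: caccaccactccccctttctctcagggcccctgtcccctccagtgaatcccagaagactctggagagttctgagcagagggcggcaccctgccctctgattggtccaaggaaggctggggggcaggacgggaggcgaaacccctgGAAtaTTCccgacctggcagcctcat

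The libraries held between 10619864 and 19554178 counts, and 3 counts in a library correspond to 0.133 to 0.316 CPM, the read count scaled to a common library size with TMM factors, a floor that covers counting error only. Oxygen-responsive genes were higher in hypoxia, with log2 changes from 3.27 for SLC2A1 to 6.45 for NDRG1 in 6 of 6 listed genes (CA9, VEGFA, NDRG1, SLC2A1, BNIP3, ANKRD37). Like the other lists, these genes were chosen with earlier results of these data known, so they are not a separate check. The share of counts from genes of the mitochondrial genome was 6.42% to 7.29% in normoxia and 2.05% to 3.05% in hypoxia. Of the markers of a meningioma or mesenchymal cell, 6 of 7 were tested, and 4 rose (VIM, DSP, CRABP2 and S100A4) and 2 fell (NF2 and SSTR2). The list summed to 2918 to 3815 CPM in normoxia and 6159 to 7730 CPM in hypoxia. Most of this sum was VIM, at 2601 to 3456 CPM in normoxia and 5561 to 7222 CPM in hypoxia. SSTR2 was at most 1.15 CPM in any library, and PTGDS was too low to test. The 5 leukocyte markers summed to at most 1.27 CPM in any library and none was tested. Endothelial markers summed to 15.7 to 19.1 CPM in normoxia and 4.85 to 7.71 CPM in hypoxia, neural and glial markers to 17.4 to 22.2 and 11.7 to 14.0 CPM, and the epithelial list, of which only KRT18 was tested, to 88.0 to 130 and 104 to 124 CPM. Most of the endothelial sum in normoxia was TEK, at a mean of 13.6 CPM, against 3.30 CPM in hypoxia. Of the 3 tested endothelial markers 2 fell, TEK and KDR, and PECAM1 did not pass. All libraries are labelled as a single cell line, so these sums are not read as numbers of cells of other types. Within the line, bulk RNA cannot tell fewer cells that express a marker from less of its RNA per cell. The part of these marker changes in the results below was not tested.

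The 10 genes did not move as a group. In edgeR's quasi-likelihood test, with p-values adjusted by Benjamini-Hochberg over 16411 genes, 3 rose in hypoxia (HSF1, DNAJB1 and HSPA8), 3 fell (HSPE1, HSP90AA1 and HSPA1A) and 4 did not pass an adjusted p of 0.05 (HSPA1B, HSPH1, HSPB1 and HSPD1). Among all tested genes 62.2% were called, 31.2% as higher and 31% as lower, so a count of 6 in 10, split evenly, is near the background and says nothing particular about these genes. Of the 10 genes, 5 were called and changed at least 2-fold (every called gene but HSPA8), against 33.9% of all tested genes. The median log2 change of the 10 genes was 0.13, against 0.01 over all tested genes. In all, the 10 genes took 0.478% to 0.488% of the counts in the normoxia libraries and 0.330% to 0.360% in the hypoxia libraries. These shares are of library totals without TMM factors. HSP90AA1 and HSPA8 held most of these counts. HSP90AA1 had 32369, 25910 and 28392 counts in normoxia and 4607, 4097 and 8031 in hypoxia. The log2 change of HSPA8 with library totals was -0.02. The share without HSP90AA1 was not taken.

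**Figure D1:**
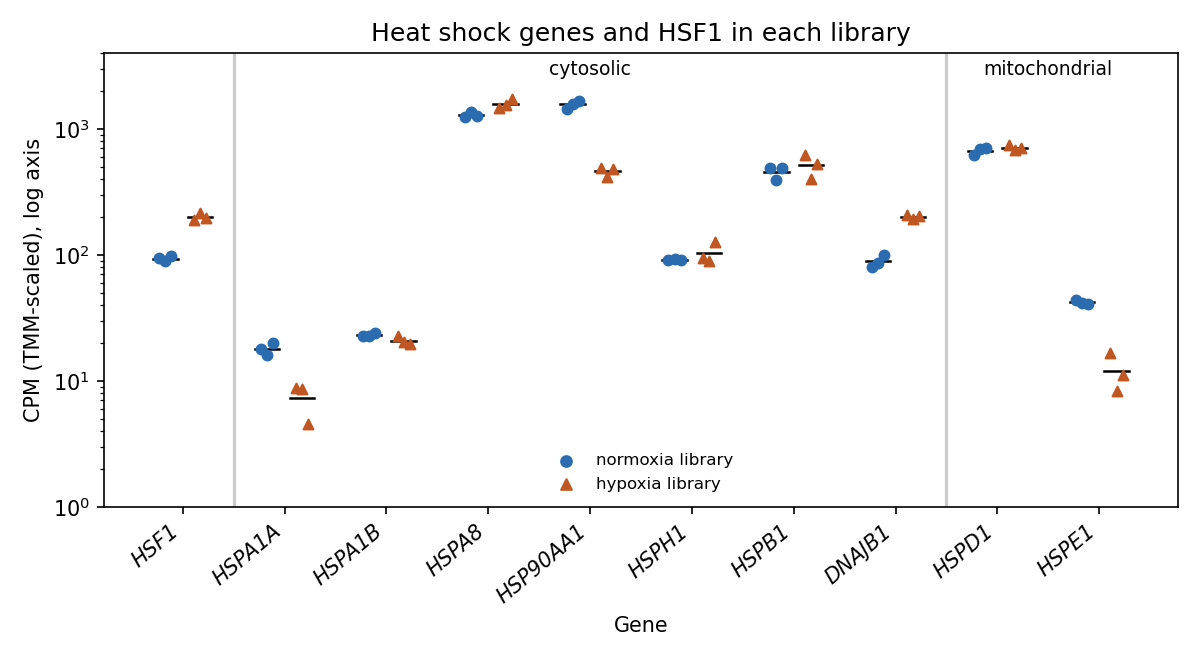
Level of HSF1, the 7 cytosolic and the 2 mitochondrial chaperone genes in each library, in CPM on a log axis, with circles for normoxia, triangles for hypoxia and a bar at each mean (n = 3). HSF1 and DNAJB1 lie higher in all 3 hypoxia libraries, and HSP90AA1, HSPA1A and HSPE1 lower in all 3. HSPA8 also lies higher and HSPA1B lower in all 3, by smaller steps.

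HSF1, the regulator (ENSG00000185122, GRCh38 chr8:144291591-144314722), was among those that rose. Its level was 93.6, 89.3 and 97.4 CPM in normoxia and 189, 213 and 195 CPM in hypoxia. The lowest hypoxia library was far above the highest normoxia library. The mean was 93.4 ± 4.02 CPM in normoxia and 199 ± 12.7 CPM in hypoxia (SD, n = 3 each). This is a log2 change of 1.09 ± 0.09 (SE), or 2.13-fold (edgeR adjusted p = 2.91e-06), and the call was kept in 15 of 15 alternative analyses. Of its exon length 2.62% is shared with other genes, mainly DGAT1 on the opposite strand, which had a log2 change of -0.01 (edgeR adjusted p = 0.975).

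Other members of the factor's family were measured too. HSF4, a relative best known from the lens, rose from 5.01, 4.66 and 2.86 CPM to 17.8, 13.9 and 14.0 CPM (log2 change 1.85 ± 0.23, edgeR adjusted p = 4.28e-05). Per kilobase of exon it reached 4.51 CPM in hypoxia, against 37.5 CPM for HSF1. HSF2, which can form mixed trimers with HSF1, was at 27.3, 28.1 and 27.6 CPM in normoxia and 26.7, 32.8 and 43.9 CPM in hypoxia, and these ranges overlapped (log2 change 0.33 ± 0.16, edgeR adjusted p = 0.107, and 0.0227 without hypoxia replicate 1). HSBP1, a small protein that binds HSF1 trimers and is described as a negative regulator, had a log2 change of -0.39 ± 0.17 (edgeR adjusted p = 0.0634). HSBP1 was called lower in 5 of 15 alternatives, among them the fit without hypoxia replicate 1 at adjusted p = 0.0017. HSBP1L1, its relative, had a log2 change of 0.54 (edgeR adjusted p = 0.196). HSF2BP, which binds HSF2 and is mainly a germ cell protein, went from 1.62 to 2.88 CPM and was called higher at adjusted p = 0.0369, a call that 9 of 15 alternatives lost. Among these were the fits without normoxia replicates 1, 2 and 3 (edgeR adjusted p = 0.134, 0.0675 and 0.0819) and without hypoxia replicates 2 and 3 (0.088 and 0.128). HSF5 had 0 to 5 counts per library and was not tested. Of the 6 tested genes in this list 3 rose and 0 fell, and the median log2 change was 0.70.

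DNAJB1 (ENSG00000132002, chr19:14514770-14529770), the J-domain protein that delivers unfolded clients to HSP70 and starts its ATPase cycle, rose most of the 9 chaperones. It was at 79.8, 86.4 and 100.1 CPM in normoxia and 209, 193 and 203 CPM in hypoxia. All 3 hypoxia libraries lay near 200 CPM and above every normoxia library. The mean changed from 88.7 ± 10.3 to 201 ± 8.03 CPM (SD, n = 3), a log2 change of 1.18 ± 0.10 (SE), 2.27-fold (edgeR adjusted p = 4.03e-06), kept in 15 of 15 alternatives. The antisense neighbour TECR overlaps 211 bases of its exons and had a log2 change of -0.20 (edgeR adjusted p = 0.195).

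HSPA8 (ENSG00000109971, chr11:123057489-123063230) encodes HSC70, the constitutive HSP70 of the cytosol. Its level was 1247, 1370 and 1265 CPM in normoxia and 1476, 1535 and 1735 CPM in hypoxia. The groups did not overlap, which was so for 67.9% of all tested genes. Mean levels were 1294 ± 66.4 and 1582 ± 136 CPM (SD, n = 3), which is 1.22-fold or a log2 change of 0.29 ± 0.11 (SE), with an adjusted p of 0.0345 by edgeR. This call was the least firm of the 6: only 6 of 15 alternatives kept it. The adjusted p was 0.154, 0.0996 and 0.116 without normoxia replicates 1, 2 and 3, and 0.0858 and 0.0978 without hypoxia replicates 2 and 3. With library totals in place of TMM factors the HSPA8 log2 change was -0.02.

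HSPA1A (ENSG00000204389, chr6:31815464-31817946), a stress-inducible HSP70 gene without introns, fell. It had 404, 262 and 341 counts in normoxia and 83, 84 and 76 in hypoxia, or 17.9, 16.1 and 19.9 CPM against 8.75, 8.56 and 4.57 CPM. Every hypoxia library was below every normoxia library, and hypoxia replicate 3 was lowest. The mean fell from 18.0 ± 1.93 to 7.30 ± 2.36 CPM (SD, n = 3), a log2 change of -1.33 ± 0.23 (SE), 2.51-fold lower (edgeR adjusted p = 0.000558).

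HSPA1B (ENSG00000204388, chr6:31827735-31830255), the copy beside it, was at 22.9, 22.9 and 23.8 CPM in normoxia and 22.7, 20.3 and 19.4 CPM in hypoxia. The ranges were close but did not overlap, and the log2 change of -0.16 ± 0.12 (SE, 95% interval -0.43 to 0.11) did not pass the test (edgeR adjusted p = 0.284). With library totals alone it was called lower, at a log2 change of -0.47 and an adjusted p of 0.00685. HSPA1A counts per 100 HSPA1B counts were 78.4, 70.2 and 83.8 in normoxia and 38.6, 42.2 and 23.5 in hypoxia, so the copies stood in different proportion in the groups.

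The values of these copies are uncertain one by one. Of the 50-base stretches in annotated HSPA1A transcripts 71.3% also occur in other genes, all of these in HSPA1B, and for HSPA1B the share is 73.5%. How reads that fit both were counted is not given in the sources used here. HSPA1B also shares 36.5% of its exon length with AL671762.1 on the same strand. Summed as 1 gene, HSPA1A and HSPA1B were at 40.8, 38.9 and 43.7 CPM in normoxia and 31.4, 28.8 and 24.0 CPM in hypoxia, and the sum had a log2 change of -0.55 ± 0.13 (edgeR adjusted p = 0.00295), which is less than for HSPA1A alone. HSPA6, the strictly heat-inducible relative, had 1 to 5 counts per library and was not tested.

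HSPH1 (ENSG00000120694, chr13:31134974-31162388) encodes HSP105, an exchange factor that resets HSP70. It was at 91.0, 92.7 and 90.7 CPM in normoxia and 94.8, 89.4 and 127 CPM in hypoxia. The groups overlapped, and hypoxia replicate 3 alone stood high. The log2 change was 0.19 ± 0.13 (SE, 95% interval -0.10 to 0.47, edgeR adjusted p = 0.231), and -0.02 without hypoxia replicate 3. HSPA4, the constitutive relative of HSPH1, fell from 302, 308 and 316 CPM to 141, 122 and 160 CPM (log2 change -1.13 ± 0.11, edgeR adjusted p = 7.10e-06), so HSPH1 counts per 100 HSPA4 counts went from 29.7 ± 0.828 to 73.4 ± 6.07 (SD, n = 3).

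HSP90AA1 (ENSG00000080824, chr14:102080738-102139699), the stress-inducible cytosolic HSP90, had the largest estimated fall among the cytosolic chaperones studied here. It was at 1436, 1588 and 1658 CPM in normoxia and 486, 418 and 483 CPM in hypoxia. The groups were far apart and each was tight. The mean fell from 1560 ± 113 to 462 ± 38.7 CPM (SD, n = 3), a log2 change of -1.76 ± 0.11 (SE), 3.38-fold lower (edgeR adjusted p = 4.08e-07), with 15 of 15 alternatives keeping the call.

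HSP90AB1, the constitutive cytosolic HSP90, did not pass the test. It was at 1891, 2157 and 2092 CPM in normoxia and 2197, 2262 and 2126 CPM in hypoxia (log2 change 0.10 ± 0.10, 95% interval -0.13 to 0.33, edgeR adjusted p = 0.417). HSP90AA1 counts per 100 HSP90AB1 counts were 76.0, 73.6 and 79.2 in normoxia and 22.1, 18.5 and 22.7 in hypoxia. This ratio is taken within each library, so it does not depend on how the libraries were scaled, and it was 3.61-fold lower. The pseudogene HSP90AA2P, with which HSP90AA1 shares more sequence than with any other gene, had 2.89-fold less in hypoxia (edgeR adjusted p = 0.000862) at far lower counts, between 42 and 269 per library, and 14% of the 50-base stretches of HSP90AA1 occur in other genes.

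**Figure D2:**
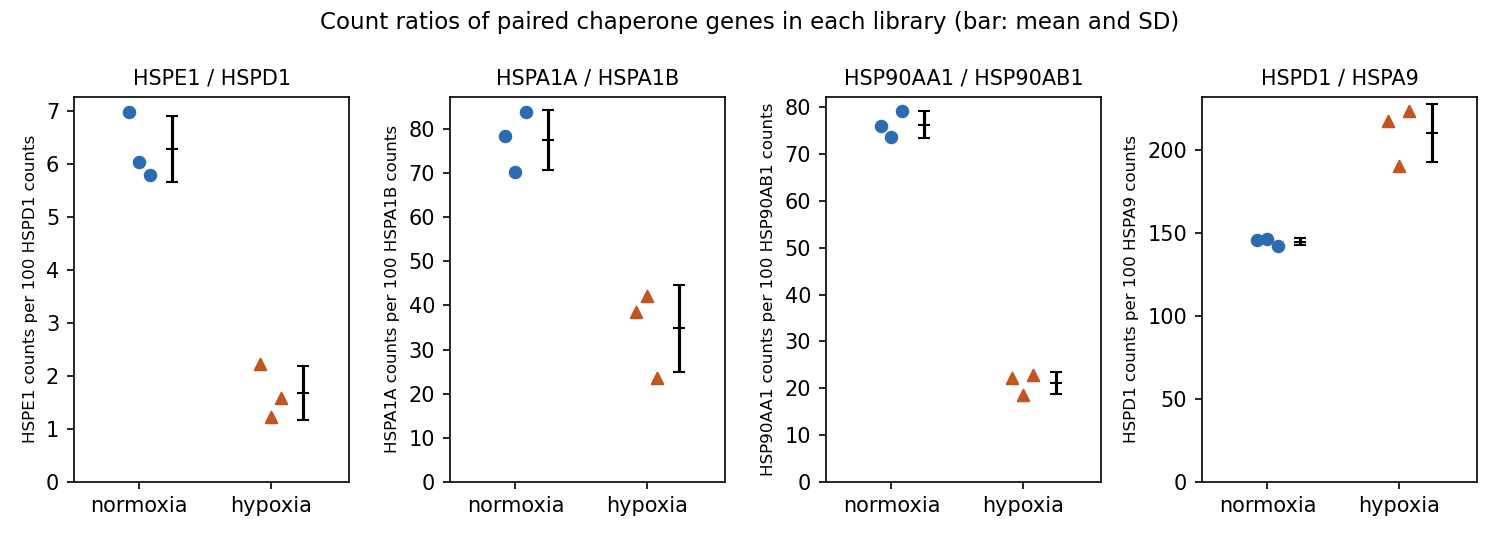
Counts of 1 chaperone gene per 100 counts of its partner or relative in each library, for HSPE1 and HSPD1, HSPA1A and HSPA1B, HSP90AA1 and HSP90AB1, and HSPD1 and HSPA9, with bars for mean and SD (n = 3) and axes that start at 0. The first 3 ratios are lower in every hypoxia library and the last is higher in every one.

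HSPB1 (ENSG00000106211, chr7:76302544-76304295) encodes HSP27, a small heat shock protein that holds unfolded proteins without using ATP. It was at 493, 393 and 485 CPM in normoxia and 621, 402 and 524 CPM in hypoxia. Normoxia replicate 2 and hypoxia replicate 2 were both low and the groups overlapped. The log2 change was 0.17 ± 0.16 (SE, 95% interval -0.17 to 0.52, edgeR adjusted p = 0.352).

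HSPD1 (ENSG00000144381, chr2:197486581-197516737), the HSP60 barrel of the mitochondrial matrix, had nearly the same level in both groups. It was at 625, 689 and 703 CPM in normoxia and 744, 685 and 698 CPM in hypoxia. The groups overlapped. The mean was 672 ± 41.2 CPM in normoxia and 709 ± 30.9 in hypoxia (SD, n = 3), and the log2 change was 0.08 ± 0.10 (SE, 95% interval -0.14 to 0.29, edgeR adjusted p = 0.509). With library totals alone it became -0.23, called lower at an adjusted p of 0.0497.

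HSPE1 (ENSG00000115541, chr2:197499994-197503457), the HSP10 lid that caps the HSP60 barrel, had the largest estimated fall of the 10 genes. It had 983, 679 and 697 counts in normoxia and 157, 82 and 184 in hypoxia, or 43.6, 41.6 and 40.7 CPM against 16.6, 8.36 and 11.1 CPM. No hypoxia library reached the level of any normoxia library. The mean fell from 42.0 ± 1.5 to 12 ± 4.17 CPM (SD, n = 3), a log2 change of -1.81 ± 0.20 (SE), 3.52-fold lower (edgeR adjusted p = 2.84e-05), kept in 15 of 15 alternatives.

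HSPD1 and HSPE1 are known as a gene pair that runs in opposite directions from a shared promoter region. HSPE1 counts per 100 HSPD1 counts were 6.97, 6.04 and 5.79 in normoxia and 2.23, 1.22 and 1.59 in hypoxia, 3.74-fold lower and with no overlap. Annotated exons of HSPE1 share 281 bases with HSPD1 on the opposite strand and 192 bases with the readthrough gene HSPE1-MOB4, in all 23.9% of its exon length. HSPE1-MOB4 had 1 count over the 6 libraries. MOB4, the next gene along and a subunit of a phosphatase complex, was 2.50-fold lower in hypoxia (edgeR adjusted p = 0.00116). Whether reads shared with these genes or with processed copies of HSPE1 and HSPD1 moved the ratio was not tested.

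The cytosolic and mitochondrial chaperones were then set side by side. Of the 7 cytosolic genes 2 rose, 2 fell and 3 did not pass, with a median log2 change of 0.17, and of the 2 mitochondrial genes 0 rose and 1 fell. In each library the mean log2 CPM of HSPD1 and HSPE1 minus that of the 7 cytosolic genes was taken. This gap was 0.05, 0.09 and -0.02 in normoxia and -0.44, -0.82 and -0.66 in hypoxia. The mean gap was 0.04 ± 0.06 in normoxia and -0.64 ± 0.19 in hypoxia (SD, n = 3), a difference of -0.68, and the groups did not overlap. The mitochondrial mean of log2 CPM went from 7.39 to 6.51 and the cytosolic mean from 7.35 to 7.15.

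That gap rested on HSPE1. Without it, HSPD1 alone against the 7 cytosolic genes gave a difference of 0.29, in the opposite direction, an analysis added after the values were seen. Over wider lists of 11 mitochondrial and 48 cytosolic chaperone genes the difference was -0.31. These lists still hold HSPE1, HSPD1 and the 7 cytosolic genes, so they are not separate from the gap above.

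**Figure D3:**
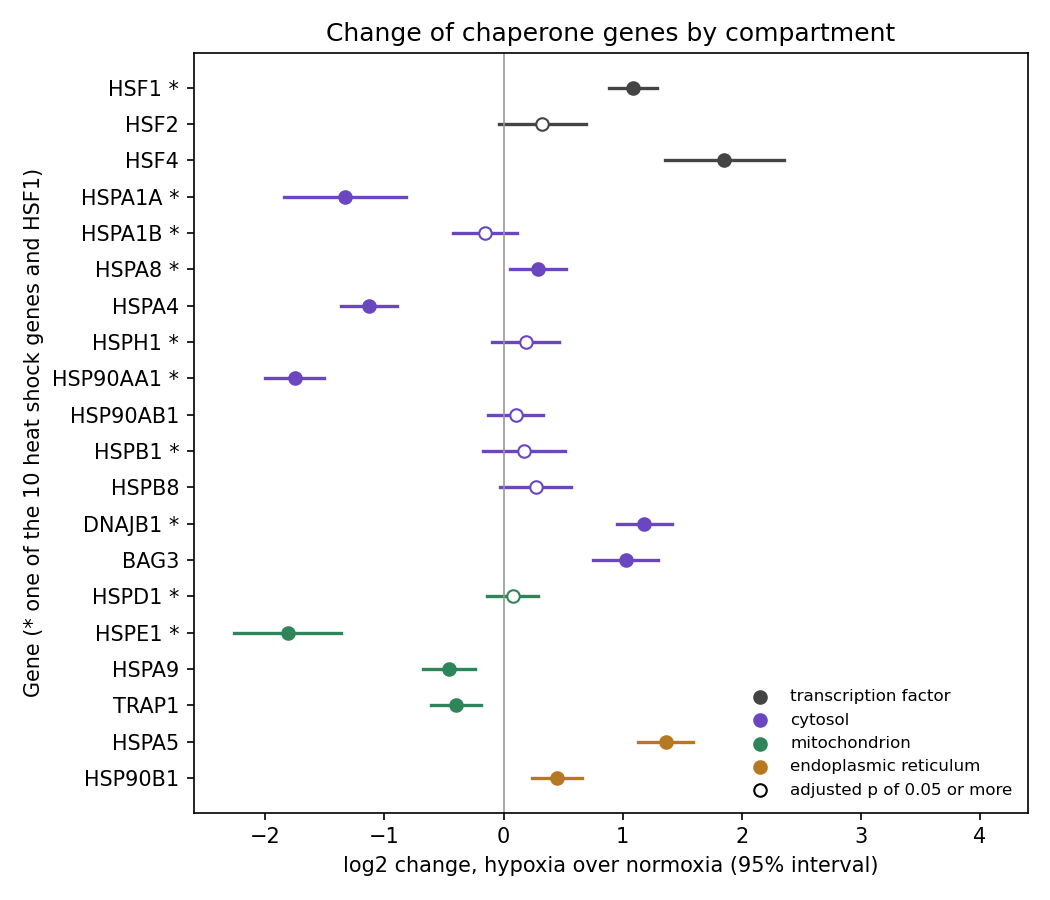
Log2 change in hypoxia over normoxia with its 95% interval from edgeR, for the 10 genes (asterisk) and relatives in the cytosol, the mitochondrion and the endoplasmic reticulum, with open circles for an adjusted p of 0.05 or more. The cytosol and the mitochondrion each hold genes that rose or fell beside genes that did not pass. HSPA5 and HSP90B1, shown for the endoplasmic reticulum, both rose, and HSPE1 lies far below its partner HSPD1.

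The order of the 10 levels was read per kilobase of exon, since longer transcripts give more counts. The length covers all annotated exons of a gene and not the transcript in use, so the order between genes also depends on the annotation. In normoxia HSP90AA1 (297 ± 21.5 CPM per kb), HSPB1 (280 ± 34.0) and HSPA8 (267 ± 13.7) led and did not differ beyond their SD. HSPD1 followed at 158 CPM per kb. DNAJB1 (24.2 ± 2.82) and HSPE1 (21.2 ± 0.758) had overlapping ranges, then came HSF1 at 17.6, HSPH1 at 10.9, HSPA1B at 9.19 and HSPA1A at 7.23 CPM per kb. In hypoxia HSPA8 (326 ± 28.1) and HSPB1 (316 ± 67.2) led without differing beyond their SD, HSPD1 (167) came next and then HSP90AA1 at 88.1 ± 7.37 CPM per kb. DNAJB1 at 54.8 and HSF1 at 37.5 CPM per kb followed, and below HSPH1 (12.4) HSPA1B (8.25 ± 0.664) and HSPE1 (6.07 ± 2.11) overlapped in spread. HSPA1A stayed last at 2.94 CPM per kb. HSPE1 thus had far fewer CPM per kb than HSPD1 in both groups. Of the 50-base stretches of HSPE1 22.7% also occur in other genes, and of those of HSPD1 18.4%. How such reads were counted is not given, and their part in these levels was not tested.

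Beyond the 10 genes, 11 lists of chaperones and their helpers held 121 genes, of which 111 were tested. Over these lists 36 genes rose and 32 fell, their median log2 change was 0.08, and without the 10 genes 33 rose and 29 fell of 101 tested. These shares are near those of all tested genes, of which 31.2% were called higher and 31% lower. The counts given for single lists, here and elsewhere, were not tested against that background. With library totals in place of TMM factors 23 of the list genes rose and 47 fell, and among all genes 3421 rose and 6905 fell, because that scaling moved the median of all genes from 0.01 to -0.30.

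**Figure D4:**
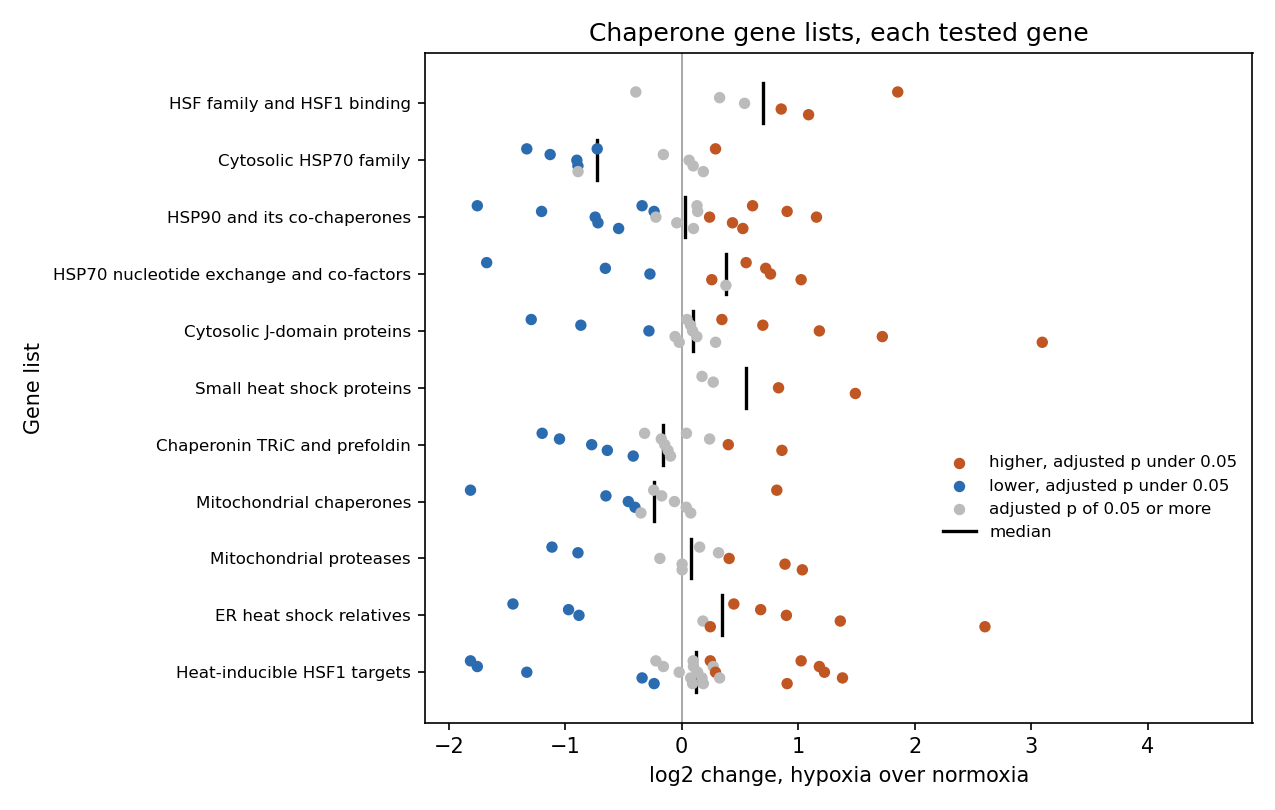
Log2 change in hypoxia over normoxia of every tested gene in the 11 chaperone lists, coloured by call (edgeR, adjusted p under 0.05), with a black bar at each list's median. Every list but the HSF family and the small heat shock proteins holds genes called in both directions.

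Among cytosolic HSP70 genes 1 of 11 tested rose, HSPA8, and 5 fell, and the median log2 change was -0.73. Besides HSPA1A and HSPA4 these included HSPA14, a ribosome-bound relative (log2 change -0.90, edgeR adjusted p = 0.00252). The helpers that load or unload HSP70 were divided: of 9 tested 5 rose and 3 fell. BAG3, an HSF1 target that links HSP70 to autophagy, rose from 106 ± 8.03 to 216 ± 34.3 CPM (SD, n = 3; log2 change 1.02 ± 0.12, edgeR adjusted p = 4.04e-05). ST13, which steadies HSP70 in its ADP state, rose from 367 to 623 CPM, and BAG6 rose by a log2 change of 0.72. BAG2, an inhibitor of the HSP70-linked ubiquitin ligase CHIP, fell from 54.0 to 17 CPM, 3.19-fold (edgeR adjusted p = 1.44e-06), and the exchange factor HSPBP1 fell by a log2 change of -0.66. BAG5 was called lower at a log2 change of -0.27, but 6 of 15 alternatives lost the call, among them each fit without a normoxia replicate (edgeR adjusted p up to 0.102) and that without hypoxia replicate 2.

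J-domain proteins, the partners that bring clients to HSP70, had the largest rise of any gene in the 11 lists. DNAJB2, which sorts clients for degradation, went from 10.2, 10.5 and 12.8 CPM to 104, 95.7 and 86.2 CPM, which is 8.55-fold or a log2 change of 3.10 ± 0.13 (edgeR adjusted p = 3.06e-08). DNAJC5, a chaperone of secretory vesicles, rose from 50.7 to 167 CPM. DNAJC8, a splicing-associated member, fell from 86.4 to 35.2 CPM, DNAJC9, a histone chaperone, from 13.2 to 7.35 CPM, and DNAJC21 by a log2 change of -0.28 (edgeR adjusted p = 0.016, and 0.0598 without normoxia replicate 2). Of 15 tested 5 rose and 3 fell.

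Of 18 HSP90 genes and co-chaperones 6 rose and 7 fell. FKBP8, a co-chaperone anchored in the mitochondrial outer membrane, rose from 152 to 339 CPM, FKBP4, which joins steroid receptor complexes, from 106 to 199 CPM, and UNC45A, a myosin chaperone, by a log2 change of 0.61. FKBP5, the relative of FKBP4 with opposed effects on those receptors, fell from 57.2 ± 3.33 to 25.2 ± 9.21 CPM (edgeR adjusted p = 0.00331), and TOMM34 fell from 80.2 to 48.0 CPM. In the chaperonin TRiC and its helper prefoldin, which fold actin and tubulin, 2 of 14 rose and 5 fell. CCT5 fell from 479, 470 and 484 CPM to 203, 198 and 223 CPM, VBP1 from 72.1 to 34.9 CPM and CCT6A from 203 to 119 CPM. The rises there were PFDN5, at 1.67 and 3.08 CPM, and PFDN4, and 7 of 15 alternatives lost each of these calls. PFDN5 lost it without normoxia replicates 2 and 3 (edgeR adjusted p = 0.126 and 0.118) and hypoxia replicates 1 and 2 (0.0695 and 0.0896), PFDN4 without normoxia replicates 1 and 2 (0.134 and 0.218) and hypoxia replicates 1 and 3 (0.204 and 0.127).

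Small heat shock proteins were mostly too low to test: 4 of 10 passed. HSPB11, also known as IFT25 and a part of the ciliary transport train, rose from 32.7 to 58.2 CPM (edgeR adjusted p = 0.00057), and HSPB6 was called higher at 7 to 20 counts per library. HSPB8, the partner of BAG3, was at 16.9 and 20.3 CPM (edgeR adjusted p = 0.102). CRYAB had 2 to 11 counts per library, and HSPB2 and CRYAA had 0 in all libraries.

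In mitochondria the wider list had 1 rise and 4 falls among 11 tested genes, with a median log2 change of -0.24. HSPA9, the mitochondrial HSP70 that pulls proteins into the matrix, fell from 430, 471 and 494 CPM to 342, 360 and 313 CPM (log2 change -0.46 ± 0.10, edgeR adjusted p = 0.00206). Its J-domain partner DNAJA3 fell from 61.7 to 39.2 CPM and the mitochondrial HSP90, TRAP1, from 73.2 to 55.4 CPM, while the exchange factor GRPEL1 rose from 20.3 to 35.6 CPM. HSPD1 counts per 100 HSPA9 counts were 145 ± 2.17 in normoxia and 210 ± 17.6 in hypoxia (SD, n = 3). Proteases of the same compartment moved both ways, with 3 of 10 up and 2 down. LONP1, the matrix protease, rose from 69.4 to 142 CPM and CLPP from 53.5 to 99.0 CPM, whereas CLPX, the unfoldase that feeds CLPP, fell from 66.4 to 35.9 CPM and the stress-activated protease OMA1 from 23.6 to 10.8 CPM. SPG7 was called higher (log2 change 0.41), which 6 of 15 alternatives lost, among them the fits without normoxia replicates 2 and 3 (edgeR adjusted p = 0.104 and 0.126) and hypoxia replicate 2 (0.131). The share of counts from the mitochondrial genome was lower in the same hypoxia libraries, as given above, and its part in these values was not tested.

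Relatives in the endoplasmic reticulum rose in 6 of 10 cases and fell in 3. HSPA5, known as BiP and the HSP70 of that compartment, rose from 523, 560 and 580 CPM to 1443, 1531 and 1300 CPM (log2 change 1.36 ± 0.11, edgeR adjusted p = 1.65e-06). HSPA5 counts per 100 HSPA8 counts went from 42.9 ± 2.62 to 90.8 ± 13.8 (SD, n = 3). DNAJB9 rose 6.08-fold, from 9.68 to 59.1 CPM, and DNAJC3 from 54.1 to 101 CPM, while DNAJC10, a disulfide reductase with a J-domain, fell from 125 to 45.8 CPM, DNAJB11 from 30.7 to 15.7 CPM and the HSPA5 exchange factor HYOU1 from 94.3 to 51.2 CPM.

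Of the 27 genes listed as heat-inducible targets of HSF1, 24 were tested, 7 rose and 5 fell. Their median log2 change was 0.12. The 9 heat shock genes described above are among them, so this list is not separate evidence. Besides DNAJB1 and BAG3 the rises included DEDD2 (24.0 to 62.6 CPM), and the falls were led by HSPE1, HSP90AA1 and HSPA1A. Genes with a 3-unit element in the printed windows were 1 called higher (HSPA8), 1 called lower (HSP90AA1) and 1 that did not pass (HSPD1). The HSPD1 stretch also lies in annotated exon sequence of HSPE1, which fell. It is outside the HSPE1 window (chr2:197500129-197500428), so HSPE1 is not counted here and the tally depends on the window limits.

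Genes with the most similar course were sought among 9399 genes with a mean of at least 10 CPM, by Pearson's r of log2 CPM over the 6 libraries. These libraries fall into 2 groups, so r mostly reflects the step between them, and no p is given. Closest to HSF1 were ZXDC, CTIF and FSTL3, each with r = 0.999 or above after rounding. Closest to DNAJB1 were ATF4, the transcription factor of the integrated stress response, SRSF9 and PSAP. ATF4 was at 203, 231 and 314 CPM in normoxia and 1473, 1263 and 1412 CPM in hypoxia. Within each group it kept the order of DNAJB1, lowest in normoxia replicate 1 and hypoxia replicate 2. As ATF4 was picked by r over these same libraries, this order is not separate evidence. For HSPD1, which hardly moved, the closest were SNORD17, MRPL27 and TPRKB at r = 0.967, 0.964 and 0.957.

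**Figure D5:**
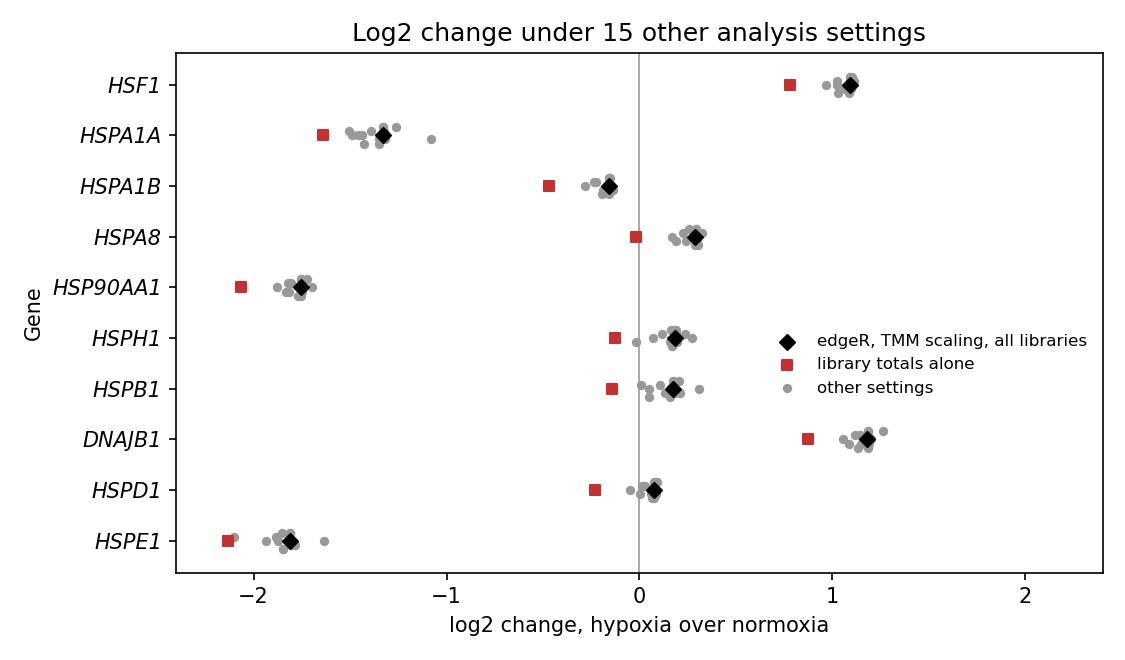
Log2 change of the 10 genes in the analysis reported here (diamonds), with library totals alone (squares) and under the other alternatives (dots). HSF1, DNAJB1, HSPA1A, HSP90AA1 and HSPE1 stay on their side of 0 under all 15, and HSPA8, HSPH1, HSPB1 and HSPD1 fall below 0 with library totals.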

How the data were processed

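The authors deposited a table of raw read counts per Ensembl gene for 6 libraries. Per the submitters' processing notes, tools were HISAT2 2.1.0, fastp 0.20.1, DESeq2 1.37.5 and featureCounts 2.0.1, on GRCh38 p13. The sources used here give no annotation release, strand setting or treatment of multi-mapping reads, so reads of a gene and its antisense overlap cannot be told apart. A line that names no gene (0.00243% of counts) was left out, and a second deposited table of normalized values was not used. Groups and replicate numbers came from sample titles. Symbols, coordinates and exon lengths are from GENCODE on GRCh38, promoter windows from RefSeq on GRCh38.p14.

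Counts were analysed in R 4.3.3 with edgeR 4.0.16: filterByExpr (minimum count 10, minimum total 15), TMM factors (1.07 to 1.16 in normoxia, 0.866 to 0.927 in hypoxia), the robust quasi-likelihood F test and Benjamini-Hochberg adjustment over 16411 genes, called at 0.05. The biological coefficient of variation was 15.3%. CPM are counts over TMM-adjusted totals, and a prior count of 2 was added for log2 CPM. Intervals are at 95%. No library was a duplicate: between replicates the chi-square of counts per gene was 5.83 to 37.0, above sampling noise. The scripts were tested on simulated data.

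The 10 genes, the lists and the markers were chosen with earlier results of these data known. From each list the text names up to 3 of the largest rises and falls among called genes with a mean of at least 1 CPM, every gene of the HSF list, the 3 most alike genes of HSF1, DNAJB1 and HSPD1, and 6 oxygen-responsive genes. A gene that this rule takes is not reported here. Others, such as HSP90AB1, HSPB8, HSPB6, HSPA6, CRYAB, TRAP1, MOB4, TECR, DGAT1 and the pseudogenes, were chosen after their values were seen. Alternatives were RLE, upper-quartile and library-total scaling, no filter, a filter at 1 CPM in 3 libraries, a replicate block, removal of the 10 most abundant genes, DESeq2 1.42.0, limma-voom (limma 3.58.1), leaving out each library, and summed HSPA1A and HSPA1B counts.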

Additional observations from a re-analysis of the deposited data

How the results depend on the processing

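Of 151 recomputed log2 changes of the 10 genes, 136 kept their sign and side of the threshold, 9 changed side with the same sign (HSPA8 in 8, HSPA1B in 1) and 6 changed sign. Library totals alone turned HSPA8 (-0.0186), HSPD1 (-0.23), HSPH1 (-0.12) and HSPB1 (-0.14) negative. HSPD1 was also negative with no filter (-0.05) and HSPH1 without hypoxia replicate 3 (-0.02), and of these only HSPA8 with the reported settings and HSPD1 with library totals were called. Other list genes called under 1 of the scalings (TMM or library totals) that reversed between them were, with library totals, CDC37 (-0.0682), BAG4 (-0.0507), CCT8 (-0.27), YME1L1 (-0.31), PMPCA (-0.30) and SERPINH1 (-0.0667). Library totals also gave 5 of the 10 genes called lower and 23 list genes higher, and 33.1% of all calls were higher against 50.1% with TMM. The change of the mitochondrial minus cytosolic chaperone gap was -0.89 without HSPA1A and HSPA1B and -0.31 over wider lists that still hold HSPE1. In analyses chosen after seeing the data, this change was -0.94 without HSP90AA1 and 0.29 without HSPE1. Leaving out 1 library gave -0.78 to -0.59, with 2 to 3 of the 10 genes higher and 3 lower, 28 to 35 list genes higher and 27 to 35 lower, and 4487 to 5283 of all genes higher and 4578 to 5630 lower. Same-numbered libraries did not deviate together (r = -0.11, 0.09 and -0.04), so the replicate numbers were not taken as pairs. With a replicate block 2 of the 10 genes were higher and 3 lower, HSPA8 had an edgeR adjusted p of 0.081, and 4862 of all genes were higher and 4906 lower. The causes of these shifts were not tested. Depth limits HSPA6, CRYAB, HSF5 and the other genes that were too low to test.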
